A study of Mus musculus with 12 samples.

Results

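The DNA replication genes described here are 40 named mouse genes that act in S phase, taken from a fixed list of names. The rule holds no measured value, but the list was chosen with earlier results of these data known. Each of the 40 matched 1 of the 36439 gene identifiers in the count tables. RNA sequencing was done on 12 libraries of tumour-associated macrophages (TAMs), which are macrophages recovered from a solid tumour. The tumours were Lewis lung carcinomas, a transplantable mouse lung cancer, grown subcutaneously in C57BL/6 mice. There were 4 groups of 3 libraries: F4/80+MRC1+ TAMs, F4/80+CD11c+ TAMs, F4/80+ TAMs overexpressing miR-511-3p and F4/80+ TAMs overexpressing a mutated miR-511-3p. F4/80 is a surface protein of mouse macrophages, MRC1 is the mannose receptor and CD11c is an integrin. All groups share the tumour model and strain, and both overexpression groups carry a construct labelled SFFV, the usual abbreviation of a retroviral promoter. The sources used here do not give the share of TAMs that carried the construct, the ages of the mice or the number of mice per library. P-values therefore measure only how far these libraries differ, which may be technical.

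A cell copies its genome once per division, in S phase. The origin recognition complex, Cdc6 and Cdt1 load rings of MCM proteins onto origins, and Cdc45 and the GINS complex turn a loaded ring into a working helicase. Polymerase alpha with primase starts each strand, polymerases delta and epsilon extend it on the sliding clamp Pcna, which the RFC complex loads, and Fen1 and Lig1 join the fragments of the lagging strand. Ribonucleotide reductase, thymidylate synthase, dUTPase and thymidine kinase supply the nucleotides. E2F transcription factors, released from retinoblastoma proteins in late G1, are known to switch on many of these genes. Macrophages in tissues can divide, and RNA of these genes is commonly read as a sign of cells in or near S phase.

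Reads counted to genes were 15664146 to 17689064 per MRC1+ library, 10824918 to 17318957 per CD11c+ library, 23326219 to 27186233 per miR-511-3p library and 22906418 to 27890433 per mutated library. The macrophage markers summed to between 8000 and 12600 CPM (reads of a gene scaled to the size of its library) in every library. Mrc1 was at 3609 to 4099 CPM in MRC1+ and 1447 to 1826 CPM in CD11c+ TAMs, and Itgax, which encodes CD11c, at 78.6 to 122.6 and 942.6 to 1051 CPM, so the sort labels matched their genes. The overexpressed microRNA was not checked here. Adgre1, which encodes F4/80, was at 567.7 to 770.2 CPM in the CD11c+ and 1028 to 1371 CPM in the other libraries. Markers of other cells were also present. Dendritic cell markers summed to 303.4 to 564.3 CPM in CD11c+ and 38.1 to 40.2 CPM in MRC1+ TAMs, and all 8 were lower in MRC1+ TAMs. Carcinoma and epithelial markers summed to 150.3 to 218.9 CPM in MRC1+, 123.5 to 177.9 CPM in CD11c+ and 17.5 to 45.3 CPM in the overexpression libraries. Of the 6 tested between the sorted groups, 4 were higher and 2 lower in MRC1+ TAMs (edgeR adjusted p under 0.05), with a median log2 fold change of 1.07. Of all genes, 6.91% were higher and 9.71% lower there. All 10 fibroblast markers had fitted values above 0 in MRC1+ TAMs, with a median of 0.45, and 0 passed that threshold. The part of these cells in the results below was not tested, and in bulk RNA fewer cycling cells and less RNA per cycling cell cannot be told apart.

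Promoter sequence is shown first because the 40 genes were chosen by function and this is a property they could share. RefSeq (GRCm38.p6) promoter windows, each 250 bases before to 50 bases after a start, were at hand for 32 of the 40 genes, in 37 windows. An E2F motif (TTTCCCGC, TTTCGCGC, TTTGCCGC or TTTGGCGC, on either strand) was found in 15 of the 37 windows, or 40.5%. Of all 32851 windows of this length, 2.26% held one. The 15 genes were Mcm3, Mcm5, Mcm6, Mcm7, Orc1, Cdc6, Cdt1, Gins3, Pola1, Pold1, Pold3, Pole2, Rfc3, Lig1 and Uhrf1. In Mcm3, Cdt1, Pold1, Pold3, Pole2 and Lig1 the matches lay only after the start. By role, the motif was present in 4 of 5 helicase genes, 3 of 4 licensing genes and 4 of 6 polymerase and primase genes, but in 1 of 5 clamp and clamp loader genes and 0 of 5 nucleotide supply genes. The CCAAT box (CCAAT) was in 54.1% of the member windows against 37.4% of all windows. The CHR element (TTTGAA or TTCGAA), known from promoters of mitotic genes, was in 16.2% against 19.2%. The TATA box (TATAAA) was in 5.41% against 13.6%. These matches describe letters and are neither shown binding sites nor causes.

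The 250 bases before the start are printed 5′ to 3′ on the gene's strand, with the E2F matches in capitals. The 5 genes shown were picked from those with a match in this stretch, and the results below return to them. Cdc6, Gins3, Mcm7 and Rfc3 also had a match before the start and are not printed. Their log2 fold changes in MRC1+ against CD11c+ TAMs were 0.04, -0.06, 0.24 and 0.04, against 0.16 to 0.35 for the 5 shown. The genes shown thus do not stand for all genes with a match. Some other genes named below, such as Pcna and Tk1, had no match in a window. The genes shown are Mcm5 (chr8:75109259-75109508, plus strand), Mcm6 (chr1:128359706-128359955, minus strand), Orc1 (chr4:108579204-108579453, plus strand), Pola1 (chrX:93632156-93632405, minus strand) and Uhrf1 (chr17:56304063-56304312, plus strand). Uhrf1 has another window, without a match, which is not printed. In Mcm5 the capitals hold 2 overlapping matches on opposite strands, and in Mcm6 they hold 3 matches, of which 2 overlap.
Mcm5: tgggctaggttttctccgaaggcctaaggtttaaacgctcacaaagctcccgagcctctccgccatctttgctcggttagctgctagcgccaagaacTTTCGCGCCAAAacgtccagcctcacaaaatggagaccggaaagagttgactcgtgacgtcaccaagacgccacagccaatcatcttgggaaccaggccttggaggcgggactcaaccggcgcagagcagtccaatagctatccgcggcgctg
Mcm6: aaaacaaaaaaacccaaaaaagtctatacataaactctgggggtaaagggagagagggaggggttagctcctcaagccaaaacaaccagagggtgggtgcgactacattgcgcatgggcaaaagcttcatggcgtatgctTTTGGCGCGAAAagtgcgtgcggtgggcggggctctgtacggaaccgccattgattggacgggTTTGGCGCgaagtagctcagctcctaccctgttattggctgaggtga
Orc1: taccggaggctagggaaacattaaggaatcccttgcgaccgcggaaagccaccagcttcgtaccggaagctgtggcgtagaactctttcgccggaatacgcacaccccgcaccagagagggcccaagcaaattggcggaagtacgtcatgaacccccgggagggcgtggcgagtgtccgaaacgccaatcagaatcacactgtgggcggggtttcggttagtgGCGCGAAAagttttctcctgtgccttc
Pola1: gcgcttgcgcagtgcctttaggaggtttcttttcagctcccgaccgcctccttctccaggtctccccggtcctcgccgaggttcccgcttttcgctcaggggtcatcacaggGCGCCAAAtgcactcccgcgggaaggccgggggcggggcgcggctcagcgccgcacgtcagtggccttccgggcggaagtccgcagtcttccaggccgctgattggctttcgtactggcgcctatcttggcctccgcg
Uhrf1: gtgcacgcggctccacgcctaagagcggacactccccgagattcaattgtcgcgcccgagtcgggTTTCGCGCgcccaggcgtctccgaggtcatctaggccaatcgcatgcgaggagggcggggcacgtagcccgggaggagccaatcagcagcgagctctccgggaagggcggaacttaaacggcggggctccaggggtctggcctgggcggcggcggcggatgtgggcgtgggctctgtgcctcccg

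Fold changes were set beside the motif. In MRC1+ against CD11c+ TAMs the median log2 fold change was 0.16 over the 15 genes with an E2F match and 0.17 over the 17 with a window but no match. In the overexpression comparison the medians were 0.12 and 0.13. These are descriptions without a test.

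All 40 genes had reads in every library. Levels of different genes are compared as CPM per kilobase of exon, the mean over 12 libraries. Pcna, the sliding clamp, was highest at 54.1 (45.0 to 64.8 over the libraries). The helicase subunits Mcm6 (44.6), Mcm3 (42.8) and Mcm5 (34.3) and the large subunit of ribonucleotide reductase, Rrm1 (38.1), were next. The ranges of these genes overlapped: Mcm6 spanned 30.5 to 53.4 and Mcm3 spanned 32.6 to 51.3, so their order was not set beyond the spread between libraries.

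Subunits of the same complex differed in length-scaled level. Mcm7 was the lowest of the 6 helicase subunits at 10.3 CPM per kilobase (7.90 to 13.0), and its range did not reach that of Mcm6. Its level is uncertain, because a processed pseudogene, Gm5487, is 97.7% identical over 2157 bases and reads that align to both places were not counted. Among the GINS subunits, which form a complex, Gins4 stood at 19.6, Gins1 at 11.3, Gins2 at 2.89 and Gins3 at 2.47. These values depend on the exon lengths used, 1349, 1087, 3900 and 2709 bases. Before scaling by length, Gins2 was above Gins1 in miR-511-3p TAMs (15.81 against 13.95 CPM) and mutated TAMs (13.52 against 11.48 CPM). It was below Gins1 in MRC1+ (8.212 against 13.05 CPM) and CD11c+ TAMs (7.567 against 10.57 CPM). Of the origin licensing genes, Orc6 and Cdt1 stood at 17.3 and 14.6, Cdc6 at 3.07 and Orc1 at 2.07.

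Counting limits touch other levels too. Uhrf1 is 98.3% identical over 1590 bases to the pseudogene Gm5648, which holds 5986 reads against 17161 of Uhrf1, so the values of Uhrf1 below are uncertain. Pcna shares 99.2% identity over 781 bases with the processed pseudogene Pcna-ps2, which holds 36258 reads against 19700 of Pcna itself, so the reads of both cannot be told apart. Fen1, the flap endonuclease, was lowest of the 40 at 0.843 CPM per kilobase and held 494 reads in all. Of its exon bases 84.2% lie opposite exons of other genes, and of those of Gins2 70.7% lie opposite Gse1. The sources used here do not say whether the counting used strand.

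**Figure D1:**
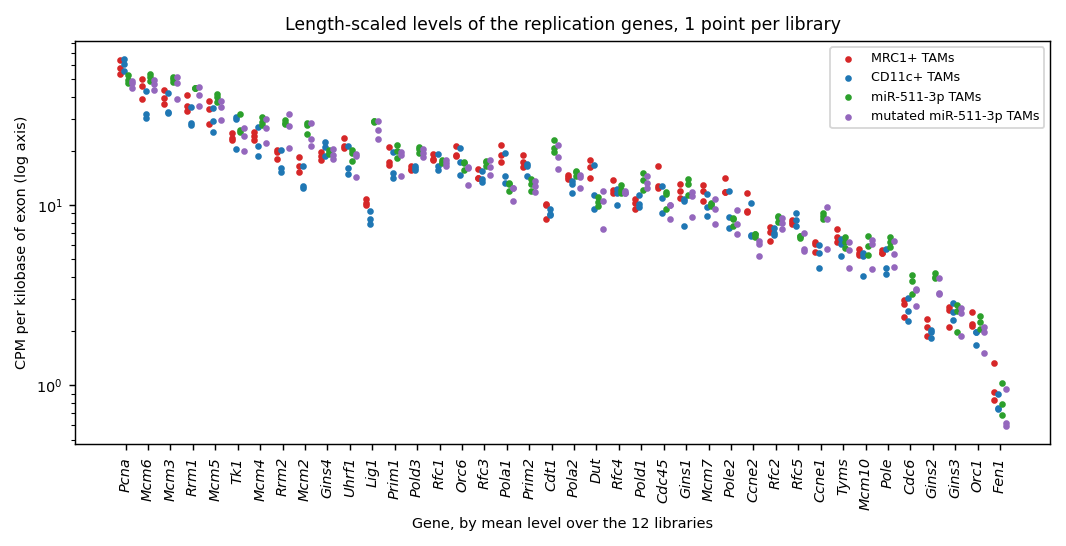
Length-scaled level of each of the 40 replication genes (CPM per kilobase of exon, log axis), with 1 point per library coloured by group and the genes ordered by their mean. Levels run from 54.1 for Pcna to 0.843 for Fen1, and Lig1 and Cdt1 show the overexpression libraries above the sorted ones.

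The first comparison set TAMs sorted for MRC1 against TAMs sorted for CD11c. In the main fit, which has no replicate block, none of the 40 replication genes differed at an adjusted p under 0.05 (edgeR quasi-likelihood test, Benjamini-Hochberg over 15622 genes). The fit with a block, given below, called 2. Of all genes tested, 6.91% were higher and 9.71% lower in MRC1+ TAMs. At an unadjusted p under 0.05 edgeR had 3 of 40 members, all higher in MRC1+ TAMs, where 16.2% of all genes were higher at that limit, and DESeq2 also called 0 of the 40. Fitted values leaned one way: 33 of the 40 were above 0, where 51.5% of all genes were, and the median log2 fold change was 0.16 against 0.01 over all genes. The values ran from -0.18 for Tk1 to 0.43 for Pole2. Fold changes are on the log2 scale throughout, with their standard errors. The summed level of the 40 genes was 2013, 1731 and 1857 CPM in MRC1+ TAMs and 1871, 1522 and 1565 CPM in CD11c+ TAMs, so the first CD11c+ library lay within the range of the MRC1+ libraries.

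Origin licensing genes all had fitted values above 0, with a median of 0.11 on the log2 scale. Orc1, the ATPase subunit of the origin recognition complex, was at 6.47, 6.64 and 7.74 CPM in MRC1+ and 5.04, 5.96 and 5.97 CPM in CD11c+ TAMs. These libraries did not overlap, and the same was true of 3 other members, Gins1, Pola2 and Lig1, all higher in MRC1+ TAMs. That makes 4 of 40, against 18.7% of all genes. Cdc6 and Cdt1, which bring the MCM ring to the origin, were at 0.04 ± 0.15 and 0.06 ± 0.11.

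The helicase genes Mcm2 to Mcm7 had fitted values of 0.12 to 0.35, none past the threshold. Mcm6 had the widest gap of the 6. It stood at 219.5, 169.7 and 200.6 CPM in MRC1+ TAMs and at 188.8, 133.3 and 139.6 CPM in CD11c+ TAMs. The second and the third CD11c+ library were below every MRC1+ library, while the first was above the second MRC1+ library. The fold change was 0.35 ± 0.15 (SE, n = 3 and 3, edgeR adjusted p = 0.151).

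Helicase activation genes were split. Cdc45, the helicase's accessory subunit, had 35.3, 26.8 and 27.3 CPM in MRC1+ and 27.4, 19.3 and 23.5 CPM in CD11c+ TAMs. Gins1 had 14.2, 11.9 and 13.0 CPM against 11.8, 8.34 and 11.5 CPM. Gins4 leaned the other way, with 26.8, 25.3 and 24.0 CPM against 30.2, 25.3 and 28.5 CPM. Its fold change was -0.14 ± 0.10 (edgeR adjusted p = 0.379), which is within the spread between libraries.

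Of the 8 polymerase and primase genes, 7 had values above 0. Pole2, the second subunit of polymerase epsilon, had 24.1, 20.3 and 20.1 CPM in MRC1+ and 20.3, 12.7 and 14.7 CPM in CD11c+ TAMs. Its fold change of 0.43 ± 0.18 (34.6% higher) was the largest of the 40 genes but did not pass (edgeR adjusted p = 0.138). Pola1, the catalytic subunit of polymerase alpha, had 114.8, 93.0 and 101.7 CPM against 104.6, 77.6 and 71.1 CPM. The delta subunits Pold1 and Pold3 stood at -0.03 ± 0.10 and 0.00 ± 0.08.

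The clamp and its loader were centred near 0, with 3 of 6 values above 0 and a median of 0.01. Pcna had 97.4, 80.8 and 88.3 CPM in MRC1+ and 92.7, 84.7 and 98.3 CPM in CD11c+ TAMs, a fold change of -0.05 ± 0.10 (edgeR adjusted p = 0.775). The sign of this value changed with the scaling and is not a direction. With the reads of Pcna-ps2 added it was -0.01 ± 0.11.

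Lig1, the ligase that seals Okazaki fragments, came nearest to the threshold. Its level was 36.2, 35.4 and 38.0 CPM in MRC1+ and 32.8, 27.7 and 29.5 CPM in CD11c+ TAMs. No library overlapped. The fold change was 0.28 ± 0.10 (21.7% higher, edgeR adjusted p = 0.0791). Fen1, at 2.01 to 3.23 CPM against 1.79 to 2.16 CPM, had a fold change of 0.38 ± 0.25.

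Among nucleotide supply genes, Tk1 (thymidine kinase of the salvage route) went against the rest. It had 33.2, 36.3 and 34.1 CPM in MRC1+ TAMs and 29.4, 44.4 and 43.5 CPM in CD11c+ TAMs. The first CD11c+ library was thus the lowest of the 6 and the other CD11c+ libraries the highest, and the fold change was -0.18 ± 0.16 (edgeR adjusted p = 0.468). Dut, the dUTPase, had 38.6, 30.8 and 35.1 CPM against 36.0, 20.5 and 24.5 CPM. Rrm1 and Rrm2, the ribonucleotide reductase subunits, were at 0.26 ± 0.12 and 0.17 ± 0.12, and Tyms, thymidylate synthase, was at 0.19 ± 0.12.

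Uhrf1, which brings the maintenance methyltransferase to newly copied DNA, had 86.9, 76.6 and 77.9 CPM in MRC1+ and 78.6, 54.4 and 58.7 CPM in CD11c+ TAMs. Its fold change was 0.33 ± 0.14 (25.8% higher, edgeR adjusted p = 0.144). The E-type cyclins, which activate Cdk2 at the start of S phase, were at 0.16 ± 0.14 for Ccne1 and 0.32 ± 0.18 for Ccne2.

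**Figure D2:**
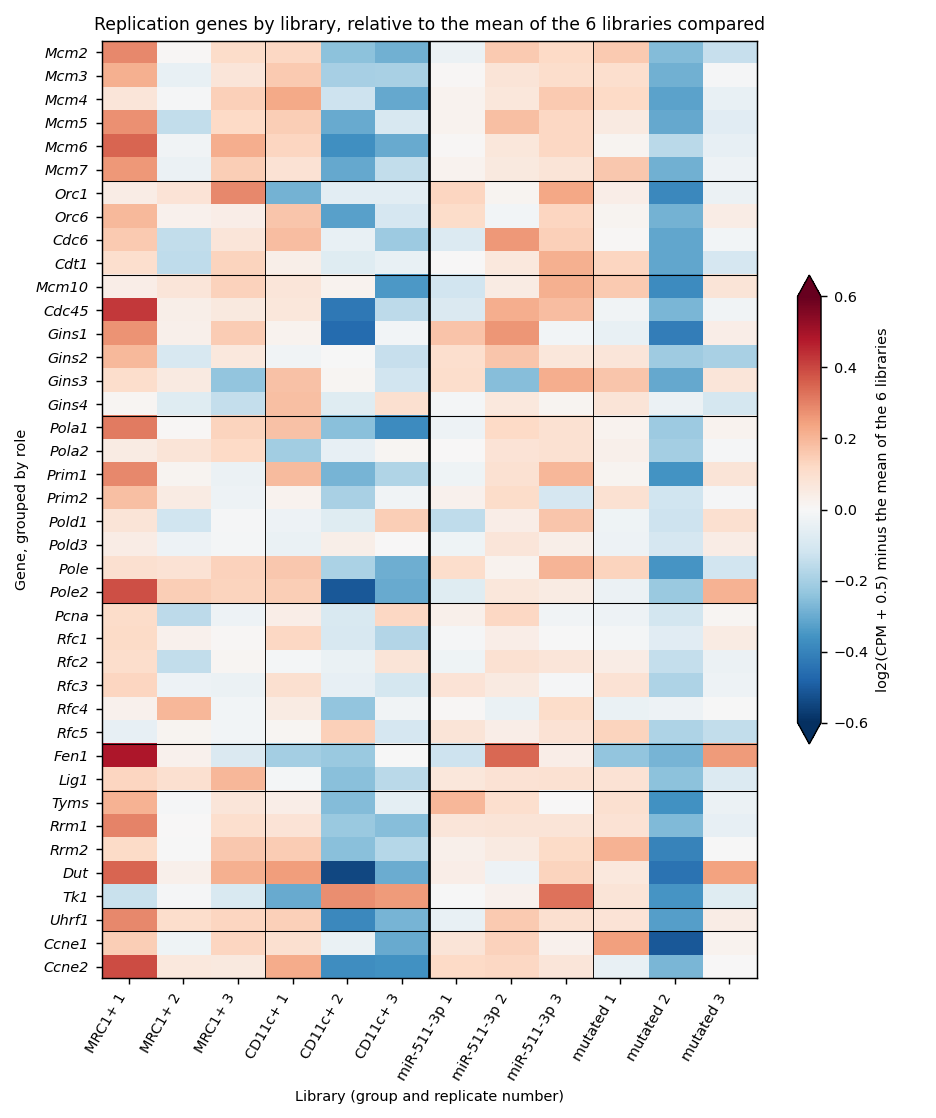
Colour map of log2(CPM + 0.5) of each replication gene (rows, grouped by role) in each library (columns), minus the mean of the 6 libraries of its comparison. Blue columns mark the second and the third CD11c+ library and the second mutated library, while the first CD11c+ library has 9 of the 40 genes below the mean.

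The first CD11c+ library was higher in these genes than the other 2 of its group, and the first MRC1+ library was the highest of its own. Between same-numbered libraries the summed level was higher in MRC1+ TAMs in 3 of 3 pairs. Relative to the mean of the 6 sorted libraries, its median over the 40 genes was 0.09 on the log2 scale, against -0.20 in the second and -0.14 in the third CD11c+ library. The MRC1+ libraries were at 0.15, 0.01 and 0.07. The second CD11c+ library was the lowest of the 6 for 18 of the 40 genes, and the third for 12. Over all genes tested these shares were 13.7% and 25.0%.

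Without the first CD11c+ library, 12 replication genes were higher in MRC1+ TAMs and 1 was lower. Of all genes, 14.8% were called higher and 14.8% lower in that fit. The library left out is the one of its group highest in these same genes, so leaving it out raises most of their fold changes by construction. Its same-numbered MRC1+ library, the highest of its own group, was kept. The calls of this fit describe that dependence and are no separate support for a difference. The highest fold changes were those of Pole2 (0.66, adjusted p = 0.00784), Dut (0.64, 0.00805), Ccne2 (0.56, 0.0136), Mcm6 (0.53, 0.0117) and Uhrf1 (0.51, 0.00473), all by edgeR. Cdc45, Pola1, Mcm2, Rrm1, Lig1, Pole and Rrm2 were called with fold changes of 0.49 down to 0.31. They span helicase, polymerase, ligation, nucleotide and cyclin genes. The 6 clamp and clamp loader genes had a median of 0.03 in this fit and the 4 licensing genes one of 0.19, and differences between roles were not tested. The gene called lower was Tk1 (-0.35, edgeR adjusted p = 0.0173). The median of the 40 genes was then 0.27. Leaving out any of the other 5 libraries called 0 of the 40.

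Other genes moved with that library. Its fibroblast markers summed to 1203 CPM, against 276.5 and 333.6 CPM in the other CD11c+ and 630.2 to 879.4 CPM in the MRC1+ libraries. Neutrophil markers summed to 121.4 CPM against 52.5 and 75.6 CPM in its group, and macrophage markers to 8000 CPM against 9271 and 11290 CPM. The carcinoma and epithelial markers, at 177.9 CPM, were above the other CD11c+ libraries (138.6 and 123.5 CPM) and within the MRC1+ range of 150.3 to 218.9 CPM, with Cldn4 at 0 throughout the CD11c+ group. The part of these cells in the levels of the replication genes was not tested.

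With the replicate number as a block, which compares same-numbered libraries, 2 members were called higher in MRC1+ TAMs. They were Mcm6 (0.36, edgeR adjusted p = 0.0390) and Pole2 (0.45, edgeR adjusted p = 0.0492), and 7.24% of all genes were called higher in that fit. At an unadjusted p under 0.05 edgeR had 12 of the 40 members with the block, against 3 without it. Without the block 33.3% of all genes passed that limit in either direction. The share with the block is not given here, so the count of 12 is not read as a result. By the 2 adjusted calls, the absence of calls in the main fit depends in part on leaving out the block. Upper-quartile scaling called Lig1 alone (0.33, edgeR adjusted p = 0.0497), where 8.63% of all genes were called higher.

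**Figure D3:**
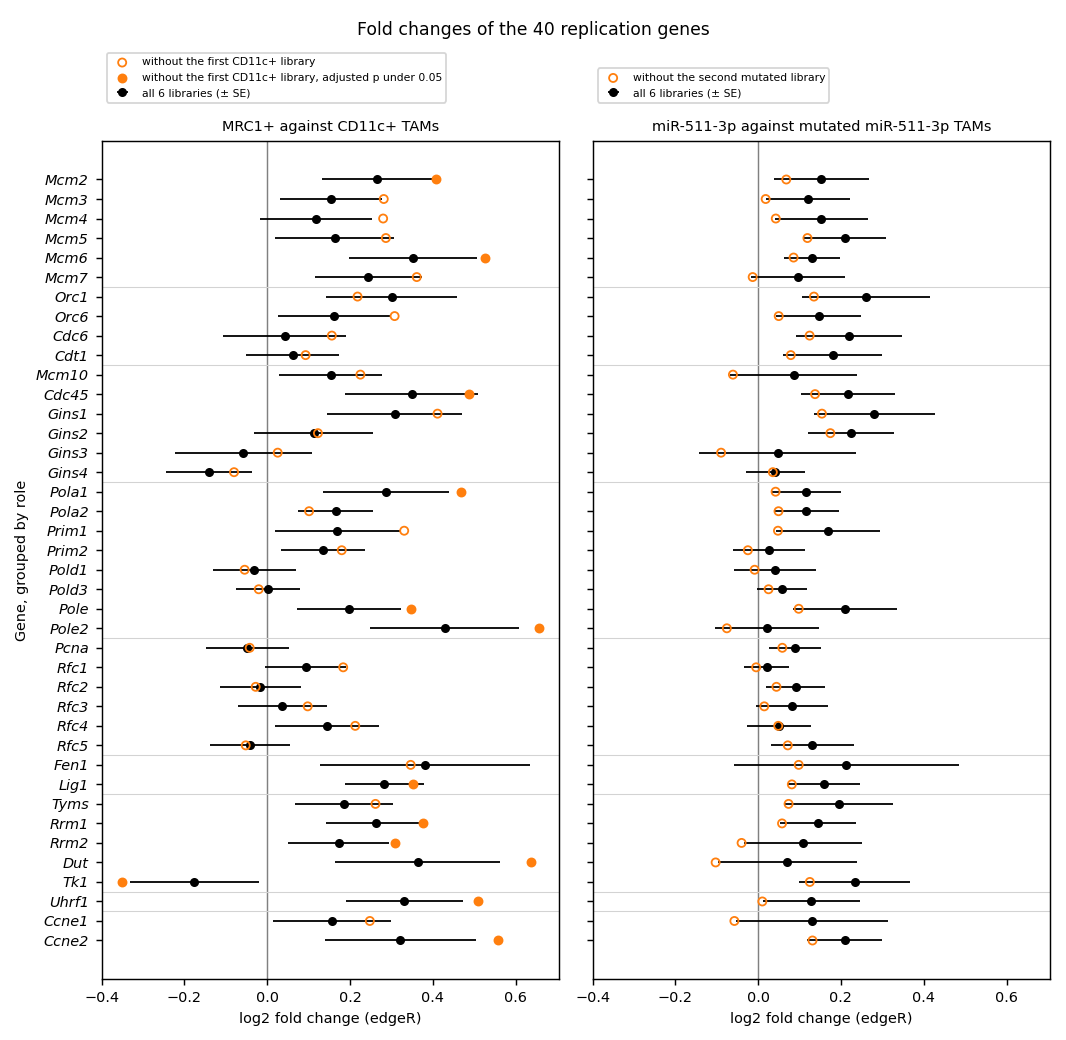
Log2 fold change of each replication gene (black, ± SE, all 6 libraries) for the sorted (left) and the overexpression comparison (right), with orange for the fit without 1 library. Filled orange points, 13 of the 40 on the left and none on the right, have an adjusted p under 0.05. No black point does. The library left out, the first CD11c+ or the second mutated one, stood apart from its group in these same genes.

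The rest of the cell cycle machinery was read from 7 lists of 94 measured genes, of which 93 were tested in the sorted comparison. There 16 were higher and 10 lower in MRC1+ TAMs by edgeR, where 6.91% of all genes were higher and 9.71% lower. Of the 18 mitosis genes 10 were higher and 0 lower, and the median was 0.40. In 15 of the 18 the MRC1+ libraries were higher with no overlap, as in 18.7% of all genes. Cdk1, the kinase of mitotic entry, was at 0.48 ± 0.09 (edgeR adjusted p = 0.0117), and Tpx2, a spindle factor, at 0.44 ± 0.09 (edgeR adjusted p = 0.0166). Their summed level was 1621, 1667 and 1660 CPM in MRC1+ and 1474, 1290 and 1181 CPM in CD11c+ TAMs, with no overlap. All 18 fitted values stayed above 0 whichever library was left out, with medians of 0.35 to 0.51. The number called varied, as did the share of all genes called higher, given in brackets. It was 15 without the first CD11c+ library (14.8%), 0 without the second (3.35%) and 4 without the third (4.21%). It was 4 without the first MRC1+ library (5.13%), 1 without the second (2.59%) and 0 without the third (2.46%). The difference between the mitosis and the replication genes was not tested.

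Licensing and fork genes outside the 40 moved both ways. Of 10 other licensing factors, Dbf4, the activating subunit of the kinase that fires origins, was higher (0.36, edgeR adjusted p = 0.0274) and Mcmbp, an MCM binding protein, was lower (-0.32, edgeR adjusted p = 0.0332). Of 20 other fork proteins, Dna2, a nuclease and helicase, was lower (19.2 ± 1.54 against 65.9 ± 6.40 CPM, SD, n = 3 and 3, a log2 fold change of -1.78, edgeR adjusted p = 6.14e-05). Chtf18, a subunit of an alternative clamp loader, was higher (0.59, edgeR adjusted p = 0.0341). Dna2 kept its call in all 14 alternative fits. The other 3 kept their direction, with values of 0.32 to 0.41 for Dbf4, -0.34 to -0.27 for Mcmbp and 0.48 to 0.65 for Chtf18. Dbf4 lost it in 4 of the 6 fits without a library (0.0699 to 0.135), and Mcmbp and Chtf18 lost it when any library except the first CD11c+ was left out (0.0529 to 0.141 and 0.0663 to 0.116). Mcmbp also lost it with upper-quartile scaling (0.0589) and with no filter on low counts (0.0672), and Cdk1 and Tpx2 in 2 and 4 of the fits without a library (0.0510 to 0.0521 and 0.0521 to 0.0844).

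Nucleotide enzymes and chromatin factors outside the 40 gave 4 calls in all. Of 12 other nucleotide enzymes, 2 were lower: Samhd1, which breaks down deoxynucleotides, by -0.92 ± 0.12 (edgeR adjusted p = 0.00159) and Dck, a salvage kinase, by -0.61 ± 0.10 (edgeR adjusted p = 0.00652). Samhd1 stood at 332.3, 326.5 and 276.1 CPM in MRC1+ TAMs and 524.7, 649.6 and 597.6 CPM in CD11c+ TAMs. Shmt1, named after its value was seen, was the 1 gene of that list called higher. Of 9 chromatin factors of S phase, Chaf1a, the large subunit of the histone chaperone CAF-1, was higher (0.48, edgeR adjusted p = 0.0389). It lost the call when any library except the first CD11c+ was left out (0.0827 to 0.134), with values of 0.39 to 0.55 over all alternatives.

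Regulators of entry into S phase were called in both directions. Of 13 E2F and retinoblastoma genes 0 were higher and 2 lower by edgeR, with 5 higher and 2 lower at an unadjusted p under 0.05, 9 of 13 values above 0 and a median of 0.27. E2f2 fell by 1.01 on the log2 scale (edgeR adjusted p = 0.00112), and Rb1 was at -0.40 (edgeR adjusted p = 0.0285), a call it lost when any library except the first CD11c+ was left out (0.0538 to 0.0896), with values of -0.48 to -0.31 over all alternatives. Of the 11 tested G1 cyclins, kinases and inhibitors 2 were higher and 4 lower, with a median of -0.13. The D-type cyclin Ccnd2 was at 26.4 ± 3.77 against 80.4 ± 6.15 CPM (SD, n = 3 and 3, -1.61, edgeR adjusted p = 0.000149). The inhibitor Cdkn1b, p27, was at 124.9 ± 3.36 against 235.0 ± 18.2 CPM (-0.91, edgeR adjusted p = 0.000419). Ccnd3 and Cdkn1a were also lower and Cdk4 and Cdkn2c higher, which are named after their values were seen. Samhd1, Dck, E2f2, Ccnd2 and Cdkn1b kept their calls in all 14 alternative fits.

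MiR-511-3p TAMs were compared with TAMs that overexpressed the mutated form. None of the 40 replication genes differed (edgeR adjusted p = 0.9999 for each), and of all 14054 genes tested 0% were called higher. At an unadjusted p under 0.05 edgeR had 0 members and 343 genes in all (2.44%), and DESeq2 called 0 members and 1 gene in all. Fitted values were above 0 for all 40 members, against 51.3% of all genes. They were small, from 0.02 for Rfc1 to 0.28 for Gins1, with a median of 0.13.

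The shared sign moved with the second mutated library. This library was the lowest of the 6 libraries for 37 of the 40 members, against 19.1% of all genes, and below the mean of the 6 for all 40. Its median over the members was -0.28 on the log2 scale, where the others were between -0.01 and 0.10. The summed level was 2016, 2123 and 2145 CPM in miR-511-3p TAMs and 2089, 1685 and 1965 CPM in mutated TAMs. Without the second mutated library 30 members were above 0 and 10 below, with a median of 0.05. Of all genes 52.6% were above 0 in that fit, so the members still leaned above 0, by a smaller median.

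Every role was touched in that library. The helicase genes summed to 586.9 CPM there, against 739.7 and 674.1 CPM in the other mutated and 703.1 to 761.5 CPM in the miR-511-3p libraries. Nucleotide supply genes summed to 245.8 CPM, against 331.8 and 303.7 CPM in the other mutated libraries. The clamp genes were nearest to the rest, at 237.4 CPM against 258.1 and 256.0 CPM. All 18 mitosis genes and all 9 chromatin factors of S phase were also lowest in it. Its macrophage markers were the highest of the 6 at 12600 CPM. Its fibroblast markers, at 161.3 CPM, were below the other mutated libraries (174.8 and 647.2 CPM) but within the miR-511-3p range of 85.2 to 261.2 CPM. Its neutrophil markers, at 63.5 CPM, were the lowest of the 6, where the highest were 140.4 CPM. T and NK cell markers, at 23.0 CPM, were the highest of the 6. Its B cell markers, at 62.7 CPM, were the lowest of the 6. Whether these move the replication genes was not tested.

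The 3 members of lowest p were Ccne2, Gins2 and Mcm5. Ccne2, an E-type cyclin, was at 22.0, 22.1 and 21.4 CPM in miR-511-3p and 19.6, 16.7 and 20.3 CPM in mutated TAMs, the 1 member of 40 without overlap, against 2.79% of all genes. Its fold change was 0.21 ± 0.09. Gins2 was at 15.7, 16.4 and 15.3 CPM against 15.4, 12.5 and 12.7 CPM (0.22 ± 0.10). Mcm5 was at 128.8, 143.7 and 138.2 CPM against 131.6, 102.4 and 121.0 CPM (0.21 ± 0.10). In both Gins2 and Mcm5 the first mutated library lay within the range of the miR-511-3p libraries.

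Of the 94 other cell cycle genes, 76 had a fitted value above 0 and 0 were called by edgeR, with 2 at an unadjusted p under 0.05 and 0 by DESeq2. The 18 mitosis genes were all above 0 with a median of 0.16, and 13 of them with a median of 0.03 without the second mutated library.

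The sorted and the overexpression libraries come from separate experiments, so the groups cannot be told apart from the experiment and no test was made. The libraries differed in other ways: mitochondrially encoded genes summed to 2752 to 3464 CPM in the sorted and 8624 to 10050 CPM in the overexpression libraries, and reads over no gene were 19.7% to 26.6% against 7.64% to 10.4%. Their part in the levels below was not tested. On a common scale over the 12 libraries, 10 of the 40 members were higher in every overexpression library than in any sorted library, and 0 were lower in every one. Of 16306 genes, 24% were higher and 24.4% lower in this way, so the share of members higher is close to that of all genes. The median ratio of means was 1.17 over the members and 0.961 over all genes.

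Lig1 had the widest gap. Its lowest, median and highest levels were 26.5, 32.6 and 36.3 CPM in the sorted and 86.4, 106.9 and 109.2 CPM in the overexpression libraries, a ratio of 3.21. Cdt1, the licensing factor, ran from 17.5 to 21.4 CPM and from 36.6 to 52.9 CPM, a ratio of 2.34. Gins2 ran from 6.80 to 8.67 CPM and from 13.1 to 17.1 CPM, a ratio of 2.03. That ratio is uncertain, because 70.7% of the exon bases of Gins2 lie opposite Gse1 and the counting strand is not known. The other 7 were Mcm2 (1.83), Rrm2 (1.66), Ccne1 (1.62), Pold1 (1.43), Pold3 (1.35), Rfc2 (1.27) and Rfc3 (1.26). They come from every role but methylation maintenance. Other members of the same roles, such as Mcm7, Orc6, Pole2 and Ccne2, overlapped between the experiments.

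**Figure D4:**
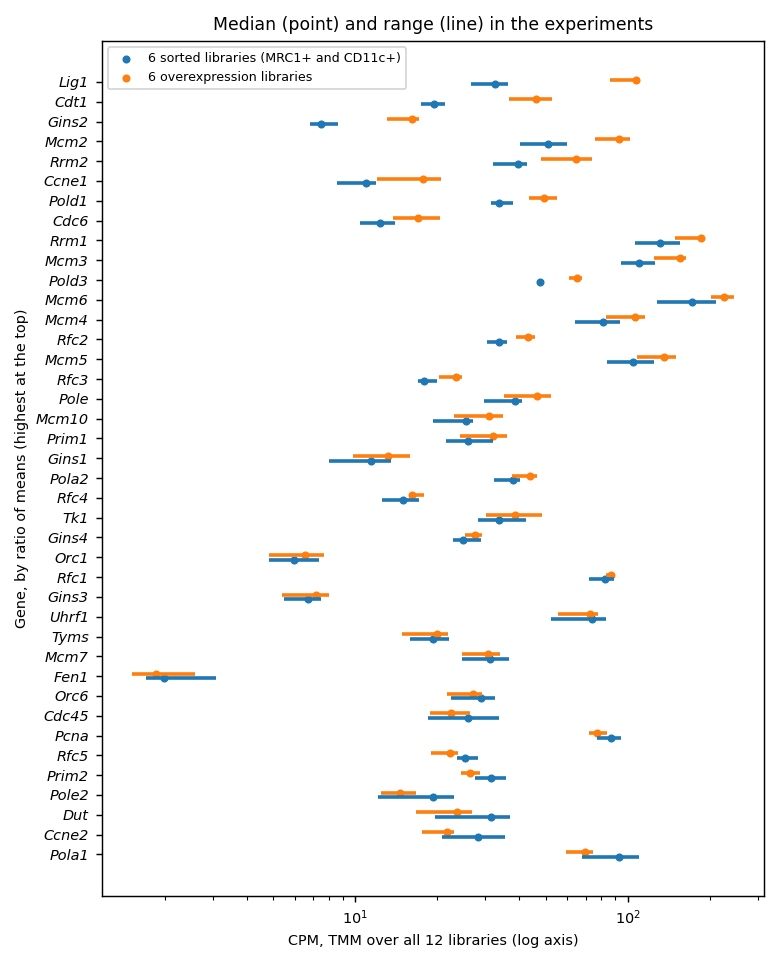
Median (point) and range (line) of each replication gene in the 6 sorted libraries (blue) and the 6 overexpression libraries (orange), in CPM scaled over all 12 libraries, on a log axis, with genes ordered by the ratio of means. Lig1, Cdt1 and Gins2 at the top have ranges that lie apart, while 30 of the 40 genes overlap. Reads of Gins2 may include those of Gse1, as the counting strand is not known.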

How the data were processed

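RNA was sequenced from 12 TAM libraries (Illumina TruSeq, per the labels' protocols). The authors deposited raw read counts for each Ensembl gene. Per the submitters' processing notes, HTSeq, SAMtools 0.1.12a, TopHat 1.2.0 and Bowtie were used, with mm9 (NCBIM37). No source used here gives the counting mode. The 5 summary entries, among them reads over no gene (7.64% to 26.6% of a library) and reads aligned to several places (12.8% to 20.1%), stayed out of all sums.

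Symbols (31819 of 36439 identifiers) and exon lengths (union over basic protein-coding transcripts, a narrowing made after the lengths were seen) came from GENCODE M21 on GRCm38, a later build, so no coordinates of the counts are given. Promoters came from RefSeq.

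Each comparison ran edgeR 4.0.16 (R 4.3.3) quasi-likelihood tests on its 6 libraries with TMM, filterByExpr and Benjamini-Hochberg at 0.05. All 40 genes passed the filter. DESeq2 1.42.0 was an alternative. CPM use TMM. Standard errors are the fold change over the root of F. Copies were searched with BLAST 2.17.0. Steps were tested on simulated counts.

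No libraries of a group agreed within sampling noise (chi-square per degree of freedom 9.18 to 33.0). Same-numbered libraries deviated together (correlations 0.104, 0.337 and 0.250 in the sorted, 0.147, 0.258 and 0.462 in the overexpression groups). Libraries of unlike number had -0.235 to -0.027 in the sorted and -0.385 to 0.166 in the overexpression groups. The first miR-511-3p library was closer to the second mutated library (0.166) than to the first (0.147), so the pairing is less clear there. The numbers were taken to pair the libraries, on the data alone. The main fits have no block, and a fit with the number as a block was an alternative. Members and lists were chosen with earlier results of these data known. By rule, fold changes with tests name members that passed and otherwise the 3 of lowest p per direction, and for lists up to 2. Other members' values are descriptions.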

Additional observations from a re-analysis of the deposited data

How the results depend on the processing

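Each result of the comparisons within an experiment was recomputed under 14 alternatives. Length-scaled levels, promoter shares and the levels across experiments were computed in 1 way only. In MRC1+ against CD11c+ TAMs, the count of replication genes called higher was 0, and became 1 with upper-quartile scaling, 2 with the replicate block and 0 to 12 when single libraries were left out. The count called lower was 0, and 0 to 1 when single libraries were left out. Over all genes 2597 were called, and 1270 to 4707 when single libraries were left out. Upper-quartile scaling moved the share of all calls that are higher from 41.6% to 50.4%. Pcna changed sign with upper-quartile scaling (0.0037) and ran from -0.1068 to 0.011 when single libraries were left out. In miR-511-3p against mutated TAMs, no gene was called, and 1 gene with DESeq2, with all 12 libraries in one fit and with the replicate block, none of them a replication gene. In MRC1+ against CD11c+ TAMs, beyond Mcm6 and Pole2, the block changed the call of no other named gene but Hells, a chromatin factor. The median of the members ran from 0.09 to 0.27 and from 0.05 to 0.21 when single libraries were left out. Adding the reads of Pcna-ps2 to Pcna was chosen after seeing the data. Where a call was lost without a library, the cause was not tested. With 3 libraries per group and no block, the standard errors of the members ran from 0.08 to 0.25 in the sorted comparison. They were as large as many of the fold changes, so smaller differences were not detectable in that fit.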
